A study of Mus musculus with 2 samples.

Results

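Of the 28692 genes counted in early mouse retina, 9 encode enzymes of serine synthesis and of folate-borne one-carbon metabolism, and they were taken by their symbols, which each name a single row in both count matrices. The cells came from *LHX4::GFP* embryos at E14.5, of the strain Tg(Lhx4::EGFP)KN199Gsat/Mmucd, in which a bacterial artificial chromosome drives EGFP from *Lhx4* regulatory sequence and which was kept heterozygous. All cells of both groups therefore carried the transgene. Retinas of 2 litters were joined in a single suspension and sorted, and 1 droplet library was made from the GFP+ cells, labelled cone photoreceptors, and 1 from the GFP− cells. Unique molecular identifiers (UMIs), which count each captured transcript once, were read from the 3′ ends of transcripts.

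Serine is made from the glycolytic intermediate 3-phosphoglycerate in a short chain of reactions. It then gives up a carbon to folate as it is turned into glycine, in the cytosol or in the mitochondrion. Mitochondria release that carbon as formate, and the cytosol uses it to build purines and thymidylate, the DNA base precursor that dividing cells need. In many cell types the synthesis genes and the mitochondrial genes are known targets of ATF4, the transcription factor of the amino acid and integrated stress response, whereas *Tyms* is known to rise with S phase.

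*Phgdh* (ENSMUSG00000053398) encodes phosphoglycerate dehydrogenase, the first step of serine synthesis, and lies on the minus strand of GRCm38 at chr3:98313170-98339990. *Psat1* (ENSMUSG00000024640, chr19:15904678-15947337, minus strand) encodes the aminotransferase of the next step. *Psph* (ENSMUSG00000029446, chr5:129765558-129787449, minus strand) encodes the phosphatase that releases serine. *Shmt2* (ENSMUSG00000025403, chr10:127517123-127522444, minus strand) encodes the mitochondrial enzyme that turns serine into glycine. *Mthfd2* (ENSMUSG00000005667, chr6:83305691-83325908, minus strand) encodes the mitochondrial dehydrogenase and cyclohydrolase that oxidizes the folate-bound carbon, and *Mthfd1l* (ENSMUSG00000040675, chr10:3973118-4167081, plus strand) the mitochondrial synthetase that releases it as formate. In the cytosol, *Shmt1* (ENSMUSG00000020534, chr11:60788104-60811718, minus strand) is the counterpart of *Shmt2*, and *Mthfd1* (ENSMUSG00000021048, chr12:76255298-76319803, plus strand) encodes a trifunctional enzyme that takes up formate. *Tyms* (ENSMUSG00000025747, chr5:30058202-30073617, minus strand) encodes thymidylate synthase. The coordinates are those of GENCODE M21, which also holds the processed pseudogenes *Phgdh-ps1* and *Tyms-ps*. Neither has a row in the matrices, and how reads shared with them were counted was not tested.

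Promoter letters are shown for *Phgdh*, *Psat1*, *Shmt2* and *Mthfd2*, the genes with the largest changes in stressed cells described further on, together with *Chac1* and *Pck2*, which hold the motif that was looked for in the 9 genes. For the enzyme genes each line gives 100 bases, from 130 to 31 bases before a RefSeq start (GRCm38.p6, minus strand in each), with CG dinucleotides in capitals. These windows lie at chr3:98340000-98340099, chr19:15925090-15925189 (1 of the 2 *Psat1* starts), chr10:127522475-127522574 and chr6:83317635-83317734. Those of *Psat1* and *Mthfd2* lie inside the GENCODE bounds given above. Letters before the outer GENCODE starts of these genes were not searched. For *Chac1* (chr2:119351038-119351067) and *Pck2* (chr14:55540152-55540181), both on the plus strand, 30 bases are given with a match to TGATGNAA on the opposite strand in capitals. TGATGNAA is the C/EBP-ATF response element that ATF4 is known to bind.
Phgdh: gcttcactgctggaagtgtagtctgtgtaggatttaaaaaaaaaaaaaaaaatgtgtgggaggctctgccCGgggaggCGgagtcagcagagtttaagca
Psat1: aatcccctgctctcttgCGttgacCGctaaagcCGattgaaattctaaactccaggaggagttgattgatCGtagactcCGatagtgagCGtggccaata
Shmt2: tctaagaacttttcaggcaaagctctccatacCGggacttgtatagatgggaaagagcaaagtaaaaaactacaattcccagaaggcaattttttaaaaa
Mthfd2: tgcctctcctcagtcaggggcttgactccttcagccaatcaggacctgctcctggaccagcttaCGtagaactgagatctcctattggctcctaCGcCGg
Chac1: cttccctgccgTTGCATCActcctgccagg
Pck2: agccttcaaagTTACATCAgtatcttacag

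All 9 enzyme genes had a promoter window in RefSeq, of 300 bases each (250 before the start and 50 from it on), and *Psat1* had 2, which makes 10 windows. TGATGNAA, on either strand, was in 0 of these 10 windows and in 3.97% of 32851 windows of all genes. It was found for 4 of the 7 stress markers with a window (*Asns*, *Atf3*, *Chac1* and *Trib3*) and for 5 of 7 aminoacyl-tRNA synthetases. It was also found for 3 of 7 genes listed under other amino acid synthesis (*Got1*, *Pycr1* and *Pck2*, which itself makes no amino acid). The letters TTTCCCGC, TTTGGCGC or TTTCGCGC, which resemble E2F sites and do not overlap TGATGNAA, were in 0 of the 10 windows and in 1.84% of all windows. Of 9 replication genes with a window, 6 held them, among them *Mcm3* and *Cdc6*. These are matches of letters in a short window and say nothing of sites outside it.

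The GFP+ library held 16010591 UMIs in 3728 barcodes and the GFP− library 46778924 UMIs in 4445. Cells with over 250 and under 3500 genes and under 25% of mitochondrial UMIs were kept, 3689 and 3389 of them, with medians of 3894 and 8848 UMIs. The upper limit removed 1055 cells of the deeper GFP− library and 39 of the other. The libraries shared 20 barcodes, 15 of them kept. Scrublet called 4 and 55 doublets, of which 3 and 0 were among the kept cells and were left in. Cells were placed in classes by the UMIs of marker lists (at least 5 UMIs over at least 2 markers and at least 80% of the UMIs of the progenitor, ganglion, amacrine/horizontal and cone lists). Neurogenic cells, marked by *Neurog2*, *Olig2*, *Atoh7* and Delta-type genes, had a separate rule. It asked for at least 5 UMIs over at least 2 of these markers. It also asked for fewer than 5 UMIs of the ganglion, amacrine/horizontal and cone lists together. This rule overrode the other and set no limit on progenitor UMIs, with a median of 5 in neurogenic cells and 44 in progenitors. The GFP+ library gave 3528 cones. The GFP− library gave 1862 progenitors, 529 neurogenic cells, 387 ganglion cells and 31 amacrine/horizontal cells. In the GFP+ and GFP− libraries 122 and 534 cells were unassigned. The cone label held in the marker *Gngt2*, at 1865 UMIs per 1000000 UMIs in the GFP+ and 8.27 in the GFP− library. *Lhx4* was at 139 and 1.66, but the cells were sorted on its reporter, so it gives no separate support. Rod markers were at 47.8 in all on the same scale in the GFP+ library (mostly *Nrl* and *Sag*), pigment epithelium markers at 11.1, vascular markers at 9.48 and red blood cell markers at 1.48, and their part in the results below was not tested.

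Levels are UMIs of a gene per 1000000 UMIs of the group (CPM), with 95% exact Poisson intervals in parentheses, and ratios carry 95% exact conditional intervals. With 1 library per gate there is no replicate and no test, and all intervals cover counting error only. A gene is called higher or lower where the ratio reached 2-fold, among genes with at least 10 UMIs in the groups compared. Because 3′ counts are not scaled by length, each gene was compared only with itself.

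Between the sort gates, 4 of the 9 genes were at least 2-fold lower in GFP+ cells and 0 were 2-fold higher, against 16.8% and 23.0% of 15236 genes. The 4 were *Shmt1*, *Mthfd1*, *Mthfd1l* and *Tyms*. *Shmt1* was at 2.19 CPM (1.52 to 3.06) in GFP+ and at 24.6 CPM (22.8 to 26.4) in GFP− cells, a ratio of 0.0893 (0.0614 to 0.126). *Tyms* was at 28.0 CPM (25.4 to 30.8) and 125 CPM (121 to 129), a ratio of 0.223 (0.202 to 0.247). *Mthfd1* and *Mthfd1l* had ratios of 0.242 (0.183 to 0.315) and 0.246 (0.170 to 0.347). The median log2 ratio of the 9 genes was −0.92, and that of all genes tested was 0.30. In sums over a gate, fewer cells of a type and less RNA per cell cannot be told apart.

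The genes of serine synthesis and the mitochondrial genes *Shmt2* and *Mthfd2* differed less between the gates. *Phgdh* was at 43.1 CPM (39.9 to 46.5) in GFP+ and 57.1 CPM (54.4 to 59.9) in GFP− cells. *Psat1* was at 54.3 CPM (50.7 to 58.1) and 97.6 CPM (94.1 to 101), and *Shmt2* at 43.5 CPM (40.3 to 47.0) and 82.1 CPM (78.9 to 85.4). All 3 were thus lower in GFP+ cells, by less than 2-fold and beyond their counting intervals. *Psph*, at 43.1 CPM (39.9 to 46.5) against 33.6 CPM (31.5 to 35.7), and *Mthfd2*, at 74.6 CPM (70.3 to 79.0) against 50.5 CPM (48.0 to 53.1), were the members with a higher level in GFP+ cells, ratios of 1.28 (1.16 to 1.42) and 1.48 (1.37 to 1.60). All genes tested had a median log2 ratio of 0.30 between the gates, so that *Psph* lay near a typical gene. With TMM factors, 1.10 for the GFP+ and 0.908 for the GFP− library, all ratios fell, and *Psat1* and *Shmt2* passed the 2-fold limit downward. With mean UMIs per cell in place of CPM, which carry the lower depth of GFP+ cells, *Psph* and *Mthfd2* turned, to 0.608 and 0.699. Depth went with class within both libraries. Median UMIs were 3873.5 in cones and 8596 in progenitors of the GFP+ library, and 4579 and 9376.5 in those of the GFP− library. The part of RNA content per cell in this was not tested.

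A small group of GFP+ cones with stress-response transcripts held a large share of the UMIs of several genes. Of the 3528 GFP+ cones, 224 had at least 5 UMIs over at least 3 of 9 stress markers (*Slc7a3*, *Slc7a5*, *Chac1*, *Trib3*, *Ddit3*, *Atf3*, *Sesn2*, *Cebpb* and *Asns*) and are called stressed. They made up 6.07% of the kept GFP+ cells and held 6.46% of their UMIs. Of all UMIs of *Mthfd2* in the GFP+ library, 49.3% (Clopper-Pearson interval 46.4 to 52.2) were in these cells. The share was 41.8% for *Phgdh* (38.0 to 45.6), 39.9% for *Shmt2* (36.1 to 43.7) and 38.5% for *Psat1* (35.2 to 41.9). It was 14.8% for *Psph* (12.2 to 17.7) and 4.61% for *Tyms* (2.84 to 7.03), the latter near the share of all UMIs.

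With only cells of at most 1 stress UMI in either gate, a choice made after seeing the data, *Mthfd2* was at 28.2 CPM (25.3 to 31.4) in GFP+ and 33.9 CPM (31.7 to 36.3) in GFP− cells, so that the direction turned, with a ratio of 0.832 (0.731 to 0.944). *Psat1* and *Shmt2* then passed the 2-fold limit downward, with ratios of 0.319 (0.283 to 0.359) and 0.330 (0.289 to 0.374). *Phgdh* had a ratio of 0.529 (0.458 to 0.608). *Tyms* moved little, from a ratio of 0.223 to 0.235, and *Psph* kept a ratio of 1.27. The gates are not matched for stress by this limit, which is stricter in deeper cells. Median depth was 3864 UMIs in these GFP+ and 8626 in these GFP− cells. Of the 9 stress markers, 4 were still at least 2-fold higher in the GFP+ cells and 0 were lower.

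**Figure D1:**
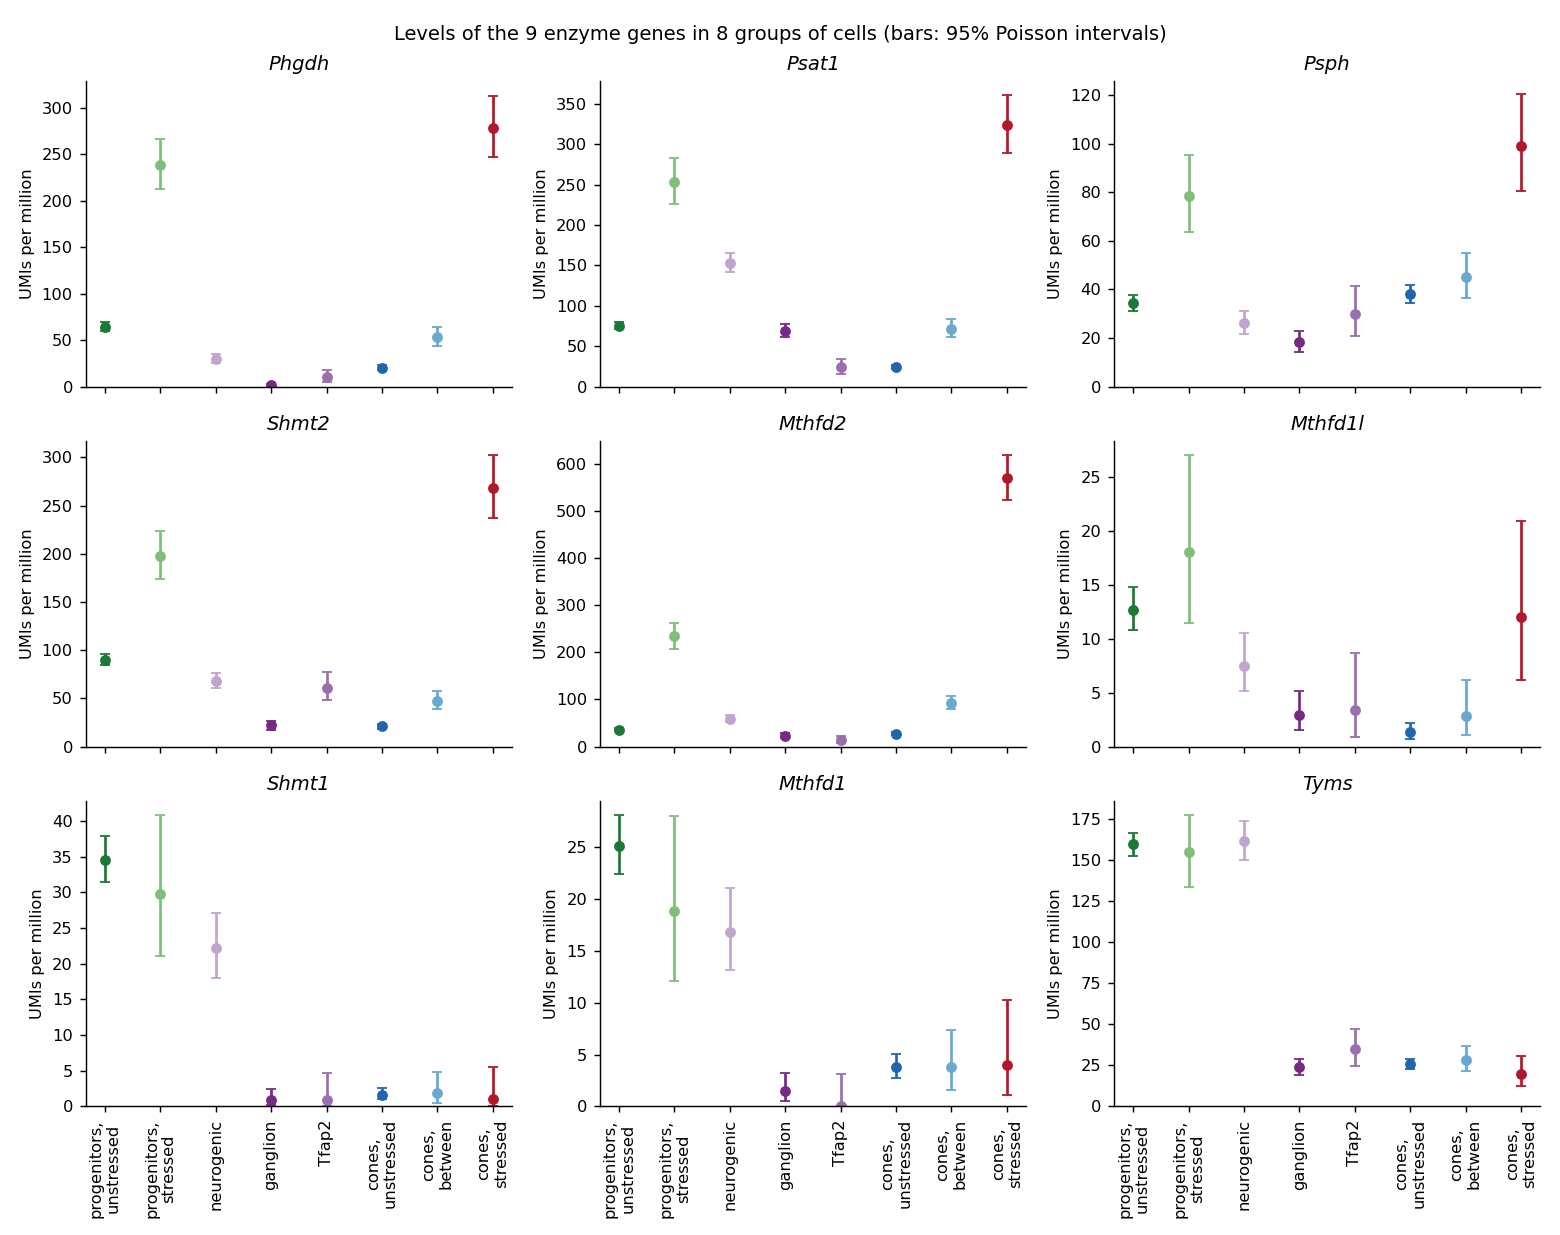
Each panel plots 1 of the 9 genes in CPM (linear axis from 0), in 8 groups of cells, with 95% Poisson intervals as bars. *Phgdh*, *Psat1*, *Shmt2* and *Mthfd2* stood highest in stressed cones, between 269 and 569, whereas *Shmt1*, *Mthfd1* and *Tyms* stood highest in progenitors and neurogenic cells.

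Across the classes set by marker UMIs, progenitors held far more of these transcripts than the postmitotic neurons of the same library. Neurons were the 387 ganglion and 31 amacrine/horizontal cells of the GFP− library, 418 in all. There, 8 of the 9 genes were at least 2-fold lower than in progenitors and 0 were 2-fold higher, against 21.7% and 17.1% of 13655 genes. The median log2 ratio was −2.22 for the 9 genes and −0.04 for all genes tested. *Psat1* was the exception. These progenitors included stressed ones, with the stress markers described above. Progenitors with at most 1 stress UMI had 35.3 CPM of *Mthfd2* (32.1 to 38.7), against 22.4 CPM (18.1 to 27.3) in neurons. They had 34.4 CPM of *Psph* (31.3 to 37.8), against 18.4 CPM (14.6 to 22.9). Against them both genes thus lay inside the 2-fold limit, and the other genes called lower stayed past it. *Psat1* was at 75.4 CPM (70.7 to 80.3) in them and 68.0 CPM (60.4 to 76.3) in neurons.

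*Phgdh* and *Psat1*, which act in turn in the same chain, parted in neurons. *Phgdh* was at 2.33 CPM (1.12 to 4.28, 10 UMIs) in neurons and 89.0 CPM (84.6 to 93.5) in progenitors, a ratio of 0.0262 (0.0125 to 0.0483). *Psat1* was at 68.0 CPM (60.4 to 76.3) and 101 CPM (95.9 to 105), a ratio of 0.676 (0.595 to 0.766). In ganglion cells alone *Phgdh* stood at 1.22 CPM (0.396 to 2.85), from 5 UMIs in 387 cells, while *Psat1* stood at 68.6 CPM (60.8 to 77.1). With each cell thinned to 3000 UMIs, *Phgdh* was found in 0 of 386 ganglion cells, which at that depth allows a share of cells with a UMI of up to 0.777% (3 counts), and *Psat1* in 17.4% (13.7 to 21.5). At full depth *Phgdh* was found in 5 of 387 ganglion cells (1.29%) and *Psat1* in 43.2%.

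The progenitor marker *Sfrp2* was at 53.0 CPM in ganglion cells and 1509 CPM in progenitors, a ratio of 0.0351. That ratio is above the 0.0137 of *Phgdh* (0.00445 to 0.0321) in the same cells. *Sfrp2* is in the list that set the classes, so the class rule itself holds its ratio down. The ratio can therefore understate RNA from outside the cell. *Sfrp2* was found in 15.3% of thinned ganglion cells. A level of *Phgdh* as low as that in ganglion cells cannot be read as expression by them. *Shmt1*, with a ratio of 0.0276 (0.00749 to 0.0710) in ganglion cells, and *Mthfd1*, with 0.0615 (0.0225 to 0.135), had intervals that reached down to that of *Sfrp2*. Those of the other members, *Phgdh* aside, lay above it. This does not show expression by ganglion cells, because the class rule limits *Sfrp2*.

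The remaining members in neurons fell between these extremes. *Tyms* was at 24.2 CPM (19.8 to 29.4) against 163 CPM (157 to 169) in progenitors. The mitochondrial genes had ratios of 0.214 (0.173 to 0.262) for *Shmt2*, 0.365 (0.293 to 0.450) for *Mthfd2* and 0.220 (0.116 to 0.384) for *Mthfd1l*. *Psph*, the last step of serine synthesis, had a ratio of 0.462 (0.361 to 0.583). The cytosolic *Shmt1* and *Mthfd1* were at 1.16 CPM (5 UMIs) and 1.40 CPM (6 UMIs) in neurons and at 35.4 CPM and 23.8 CPM in progenitors.

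The amacrine/horizontal class was small, and its 31 cells alone gave *Phgdh* a ratio to progenitors of 0.285 from 5 UMIs. Many cells with *Tfap2a* or *Tfap2b* also carried UMIs of the ganglion list. A wider group of 178 GFP− cells, with at least 5 *Tfap2a* and *Tfap2b* UMIs and fewer than 5 progenitor and 5 cone UMIs, was added after seeing the data. These Tfap2 cells held 1536 CPM of ganglion markers and 203 CPM of *Cldn5*, a gene of the vascular list, while *Cdh5* of that list was at 0. In them *Psat1* was low, at 23.8 CPM (15.8 to 34.3), with a ratio to progenitors of 0.236 (0.156 to 0.343) against 0.682 (0.599 to 0.774) in ganglion cells. *Shmt2* showed the reverse, at 61.1 CPM (47.8 to 76.9) in Tfap2 cells and 22.0 CPM (17.7 to 27) in ganglion cells. *Phgdh* was at 10.2 CPM (5.26 to 17.8) and *Mthfd1* had 0 UMIs, which allows up to 2.55 CPM. The 31 cells of the planned class did not show these differences from ganglion cells. They had 55.7 CPM of *Psat1* (27.8 to 99.7, 11 UMIs) and 45.6 CPM of *Shmt2* (20.8 to 86.5, 9 UMIs). Both intervals held the level of ganglion cells.

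Neurogenic cells stood apart from both progenitors and neurons in *Psat1*. It was at 153 CPM (142 to 165) there and 101 CPM (95.9 to 105) in progenitors, a ratio of 1.52 (1.39 to 1.66). *Phgdh* was lower, at 29.9 CPM (25 to 35.5), a ratio of 0.336 (0.279 to 0.402). *Tyms*, at 162 CPM, and *Mthfd2*, at 59.4 CPM, had intervals of their ratios to all progenitors that held 1. Stressed progenitors held 28.2% of the *Mthfd2* UMIs of all progenitors. Progenitors with at most 1 stress UMI had 35.3 CPM of *Mthfd2* (32.1 to 38.7), and its interval in neurogenic cells began higher, at 52.4 CPM. The neurogenic cells were not held to that stress limit. *Shmt1*, *Mthfd1*, *Mthfd1l*, *Psph* and *Shmt2* had ratios of 0.544 to 0.705. For an order of *Psat1* levels, progenitors and cones were taken with at most 1 stress UMI, and the other groups with all their cells. Among these groups *Psat1* was highest in neurogenic cells. Progenitors (75.4 CPM, 70.7 to 80.3) and ganglion cells followed, and did not differ beyond their intervals. Unstressed cones and Tfap2 cells came last and did not differ either.

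**Figure D2:**
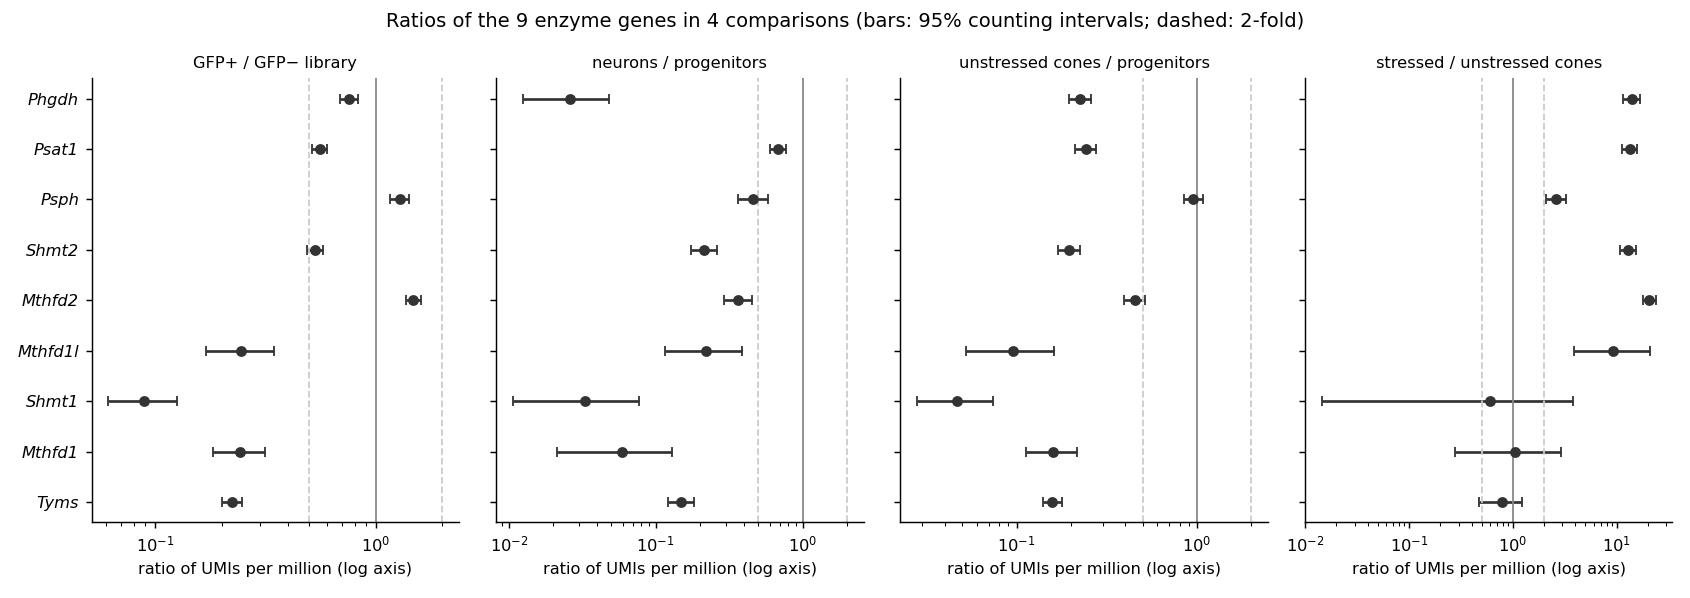
Points give the ratio of CPM values for each of the 9 genes in 4 comparisons, on log axes whose ranges differ between panels, with 95% counting intervals as bars, a solid line at 1 and dashed lines at 2-fold. In neurons *Psat1* and in unstressed cones *Psph* stayed inside the 2-fold lines, and in stressed cones 6 genes lay above them.

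Cones without stress transcripts, 2808 GFP+ cones with at most 1 stress UMI, also had low levels of most members. Against progenitors, 8 of the 9 genes were at least 2-fold lower and 0 were 2-fold higher, where 16.5% and 28.4% of 14384 genes were. The median log2 ratio was −2.36 for the 9 genes and 0.39 for all genes tested. *Psph* was the exception, at 38.0 CPM (34.5 to 41.8) in cones and 39.9 CPM (36.9 to 43.0) in progenitors, a ratio of 0.954 (0.844 to 1.08).

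*Phgdh* was at 20.1 CPM (17.6 to 22.8) in unstressed cones, *Psat1* at 24.3 CPM (21.5 to 27.3) and *Shmt2* at 21.0 CPM (18.5 to 23.9), with ratios to progenitors of 0.226, 0.241 and 0.195. *Shmt1* was at 1.67 CPM (1 to 2.60), a ratio of 0.0470 (0.0281 to 0.0741), and *Tyms* at 25.7 CPM (22.8 to 28.8), a ratio of 0.158 (0.140 to 0.178). *Sfrp2* had a ratio of 0.0129 in the same comparison, below that of each member. The class rule limits *Sfrp2* in cones, so this does not show that the members lay above RNA from outside the cell. *Mthfd2* was at 27.6 CPM (24.6 to 30.8) against 61.2 CPM (57.6 to 65.0), a ratio of 0.451 (0.396 to 0.512). When progenitors too were held to at most 1 stress UMI, the ratio of *Mthfd2* was 0.782 (0.675 to 0.905), inside the 2-fold limit, and that of *Phgdh* 0.311 (0.267 to 0.360). That stress limit is stricter in these progenitors, whose median depth was 9246 UMIs, against 3831.5 in the cones. With all GFP+ cones, stressed ones included, *Mthfd2* turned direction, to a ratio of 1.21, *Psat1* lay inside the limit, at 0.515, and 6 genes were lower.

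Because the cones came from the GFP+ and the progenitors from the GFP− library, class and library cannot be told apart in the pooled values. The few cells of each class in the other gate gave a value within a library. The 21 progenitors of the GFP+ library had 96.7 CPM of *Phgdh* (57.3 to 153), 145 CPM of *Shmt2* (95.6 to 211), 32.2 CPM of *Shmt1* (11.8 to 70.2) and 161 CPM of *Tyms* (109 to 230.2), each with an interval that held the level of GFP− progenitors. The 46 cones of the GFP− library had 31.1 CPM of *Phgdh* (12.5 to 64.2), 13.3 CPM of *Shmt2* (2.75 to 39.0), 22.2 CPM of *Tyms* (7.22 to 51.9) and 0 UMIs of *Shmt1*. Within each library these 4 genes were thus lower in cones than in all progenitors. For *Phgdh* in GFP− cones this rested on 7 UMIs. Its interval there overlapped that of GFP− progenitors with at most 1 stress UMI (64.5 CPM, 60.2 to 69.1). A lower level in cones within each library was not shown for *Psat1*, at 71.2 CPM (40.7 to 116) in GFP− cones. Nor was it for *Mthfd2*, at 48.9 CPM (24.4 to 87.5) in GFP− cones and 59.1 CPM (29.5 to 106) in GFP+ progenitors, where all GFP+ cones had 74.4 CPM. *Mthfd1* and *Mthfd1l* had 2 UMIs and 1 UMI in GFP− cones.

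Beside the 9 genes, thymidylate and nucleotide genes moved in the same way in both comparisons with progenitors. All 6 (*Dut*, *Rrm1*, *Rrm2*, *Tk1*, *Dtymk* and *Dctd*) were at least 2-fold lower in neurons and in cones, with median log2 ratios of −2.05 and −3.03. Of 6 genes of purine synthesis, a user of formate, 5 were lower in neurons and 3 in cones. *Slc19a1*, a folate carrier, had a ratio of 4.82 in cones. Of 4 glycine cleavage genes, 3 were lower in neurons and 2 in cones.

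Within progenitors the members, like most genes tested, differed by less than 2-fold between replicating and mitotic cells. The 1862 progenitors were divided by the UMIs of mitotic and replication gene lists into 1056 replicating, 726 mitotic and 80 other cells. In mitotic against replicating progenitors 0 of the 9 genes were 2-fold higher and 0 were 2-fold lower, against 347 and 645 of 13009 genes. The median log2 ratio was −0.07 for the 9 genes and −0.04 for all genes tested. *Shmt1* was at 45.3 CPM (41.1 to 49.8) in replicating and 24.3 CPM (20.9 to 28.2) in mitotic progenitors, a ratio of 0.537 (0.448 to 0.641). *Mthfd1* had 29.2 CPM (25.9 to 32.9) and 17.4 CPM (14.5 to 20.7), a ratio of 0.596 (0.479 to 0.738). These cytosolic genes were the members most reduced in the mitotic band. *Tyms* was at 177 CPM (168 to 185) and 152 CPM (143 to 161), a ratio of 0.859 (0.795 to 0.927), and was at 57.7 CPM (39.5 to 81.5) in the 80 other progenitors. In these, 3 of the 9 genes were at least 2-fold lower than in replicating progenitors and 0 were higher, against 1654 and 949 of 12416 genes. Beside *Tyms* they were *Shmt1*, at 10.8 CPM (3.97 to 23.6, 6 UMIs), and *Mthfd1*, at 14.4 CPM (6.23 to 28.4, 8 UMIs). The interval of *Mthfd1* overlapped that of replicating cells.

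*Psat1* was instead higher in mitotic cells, at 86.3 CPM (80.5 to 92.4) in replicating and 123 CPM (115 to 131) in mitotic progenitors, a ratio of 1.42 (1.29 to 1.56). *Phgdh* and *Shmt2* had ratios of 1.20 (1.08 to 1.33) and 1.12 (1.02 to 1.23). For *Psph*, *Mthfd2* and *Mthfd1l* the interval of the ratio held 1. The median depth was 8948 UMIs in replicating, 10091 in mitotic and 6846.5 in other progenitors. Median stress UMIs per cell were 0 in replicating, 1 in mitotic and 0 in other progenitors. The part of depth and of stress transcripts in these differences was not tested.

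**Figure D3:**
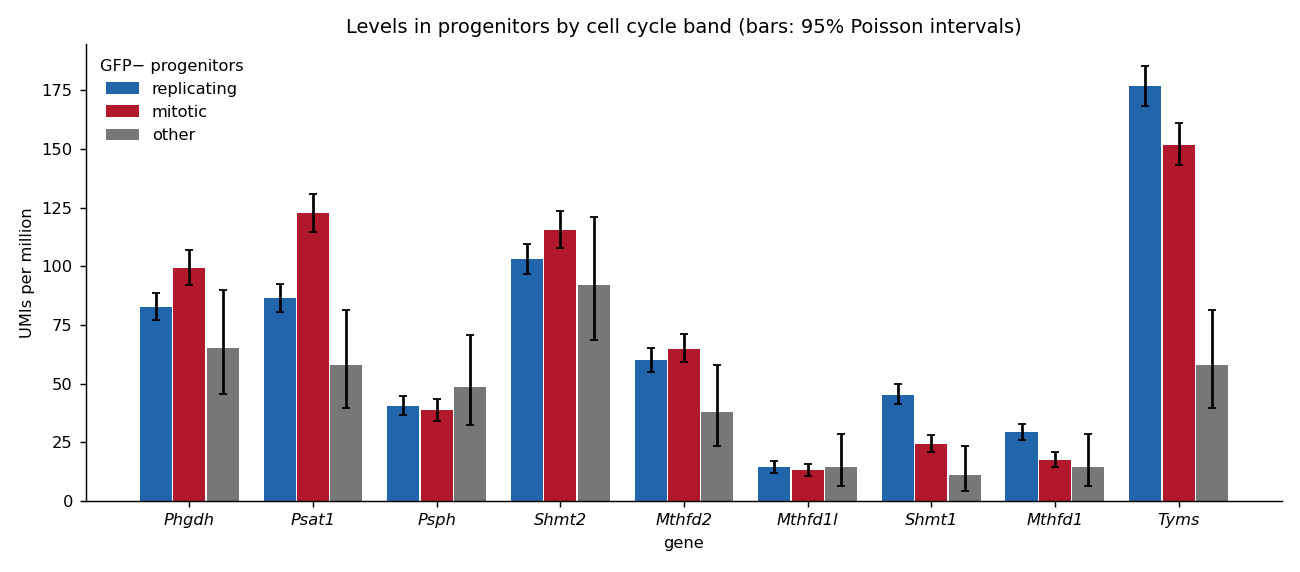
Bars give CPM (linear axis from 0) of the 9 genes in GFP− progenitors of the replicating, mitotic and other bands, with 95% Poisson intervals. *Shmt1*, *Mthfd1* and *Tyms* were highest in replicating cells and *Psat1* in mitotic cells.

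*Phgdh*, *Psat1*, *Shmt2* and *Mthfd2* were each more than 10 times as high in stressed as in unstressed cones. Against unstressed cones, 6 of the 9 genes were at least 2-fold higher, where 6.60% of 12917 genes were, or 2.56% of the 9065 genes with at least 100 UMIs in both groups together, and 0 were 2-fold lower, where 7.98% of genes were. The median log2 ratio was 3.20 for the 9 genes and 0.08 for all genes tested. The members were no part of the marker list that set the groups, but several of those markers are, like the synthesis and mitochondrial genes among the members, known targets of ATF4.

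*Mthfd2* was at 569 CPM (524 to 618) in stressed and 27.6 CPM (24.6 to 30.8) in unstressed cones, a ratio of 20.6 (17.9 to 23.7). *Phgdh* was at 279 CPM (247 to 313) and 20.1 CPM (17.6 to 22.8), a ratio of 13.9 (11.6 to 16.6). *Psat1* was at 324 CPM (289 to 361) and 24.3 CPM (21.5 to 27.3), a ratio of 13.3 (11.3 to 15.7). *Shmt2* was at 269 CPM (238 to 303) and 21.0 CPM (18.5 to 23.9), a ratio of 12.8 (10.7 to 15.3). The ratios of the last 3 did not differ beyond their intervals, and that of *Mthfd2* lay above them. *Psph*, the end of the same chain, moved much less, from 38.0 CPM (34.5 to 41.8) to 98.9 CPM (80.4 to 120.4), a ratio of 2.60 (2.07 to 3.24).

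The mitochondrial and cytosolic genes of the folate cycle parted. *Mthfd1l* rose from 1.31 CPM (15 UMIs) to 12.0 CPM (12 UMIs), a ratio of 9.12 (3.90 to 20.9), on few counts. *Shmt1* had 1 UMI in stressed and 19 in unstressed cones, a ratio of 0.600 (0.0144 to 3.77). *Mthfd1* had 4 and 43 UMIs, a ratio of 1.06 (0.276 to 2.92), and the depth could not show a moderate change of either gene. *Tyms* was at 20.0 CPM (12.2 to 30.9) and 25.7 CPM (22.8 to 28.8), a ratio of 0.778 (0.468 to 1.22), so that a 2-fold rise lay outside its interval.

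The levels followed the number of stress UMIs in a cell. In cones with 0, 1, 2 to 4, 5 to 9 and 10 or more stress UMIs, *Mthfd2* was at 22.6, 37.4, 91.5, 391 and 723 CPM. *Phgdh* was at 21.2, 17.8, 50.3, 193 and 361 CPM over the same bands, and did not differ beyond its intervals between 0 and 1 stress UMIs. *Shmt2* was at 20.4, 22.2, 46.0, 184 and 346 CPM. *Psat1* was at 20.6, 31.5, 68.5, 253 and 391 CPM. The cones with 2 to 4 stress UMIs, left out of both groups above, lay between them for all of these genes, and *Tyms* stayed between 19.6 and 28.7 CPM in every band.

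**Figure D4:**
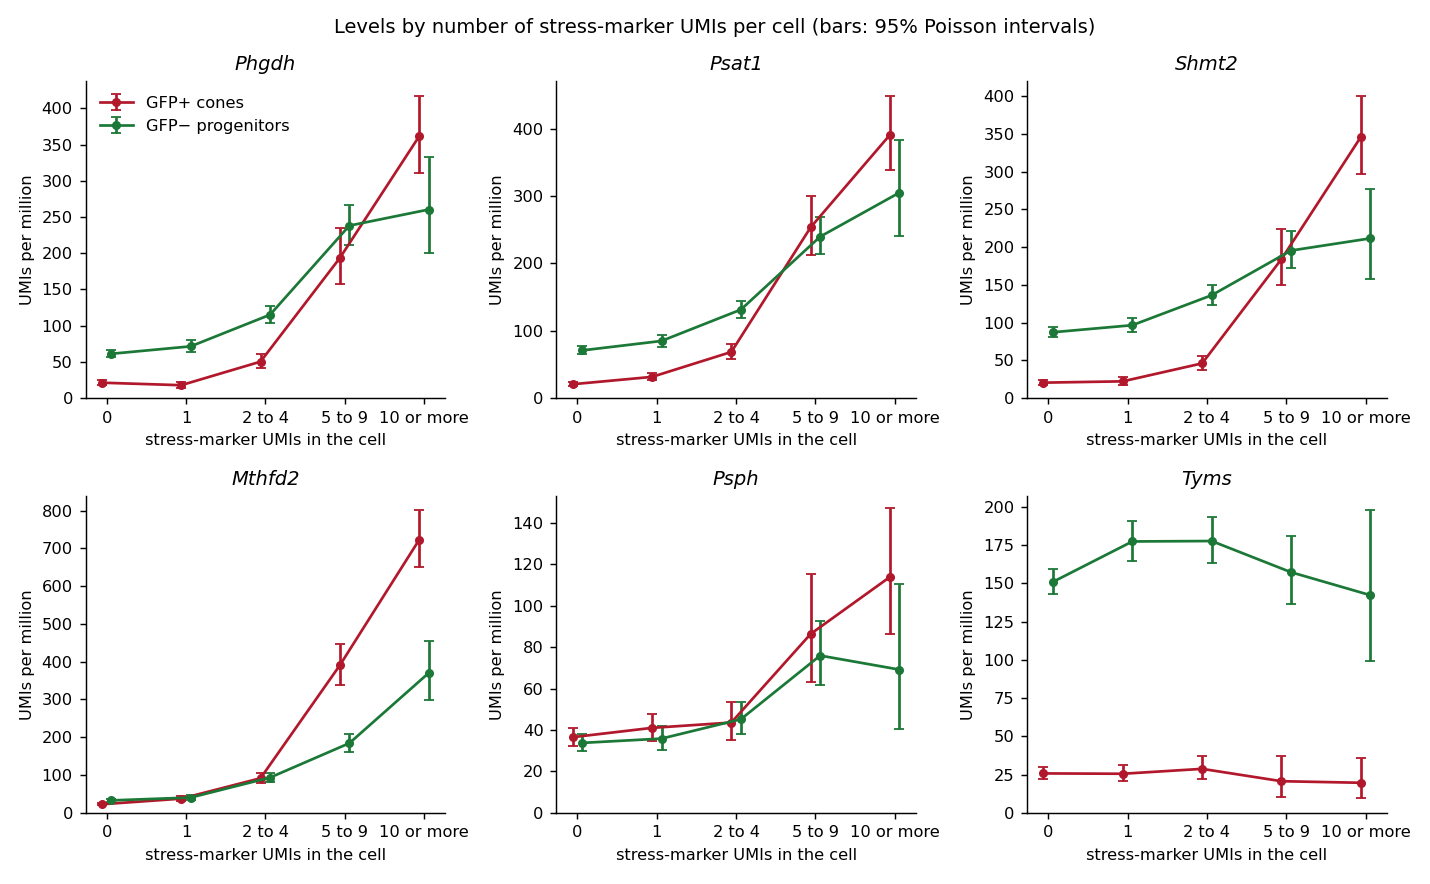
Lines join CPM (linear axes from 0) in GFP+ cones and GFP− progenitors binned by the stress-marker UMIs of the cell, with 95% Poisson intervals. *Phgdh*, *Psat1*, *Shmt2* and *Mthfd2* climbed over the bands in both classes, *Psph* less so, and *Tyms* showed no such climb.

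Shares of cells with a UMI differed as the levels did. With cells thinned to 3000 UMIs, *Mthfd2* was found in 71.9% of 210 stressed cones (65.3 to 77.9) and in 6.86% of 2537 unstressed cones (5.91 to 7.91), and 14 and 271 shallower cells were left out. *Psat1* was found in 56.7% (49.7 to 63.5) and 6.50% (5.58 to 7.53), *Phgdh* in 48.6% (41.6 to 55.5) and 4.38% (3.61 to 5.25), and *Shmt2* in 42.9% (36.1 to 49.8) and 5.99% (5.10 to 6.99). Without thinning, *Mthfd2* was found in 81.7% and 9.19%. The progenitor marker *Sfrp2*, which cones should lack, was found in 10.0% (6.30 to 14.9) and 5.68% (4.81 to 6.65).

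The 4 genes were also counted within each cell. Whether they were found together more often than their single shares give was not tested. Of the 210 stressed cones, 57 (27.1%) had a UMI of 3 of *Phgdh*, *Psat1*, *Shmt2* and *Mthfd2*, and 32 (15.2%) of all 4. Of the 2537 unstressed cones, 5 and 2 did. None of the 4 was found in 9.52% of stressed (5.91 to 14.3) and 78.8% of unstressed cones (77.2 to 80.4). In unstressed progenitors, none was found in 45.8% (43.2 to 48.5) and all 4 in 0.0724% (0.00183 to 0.402) of cells.

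**Figure D5:**
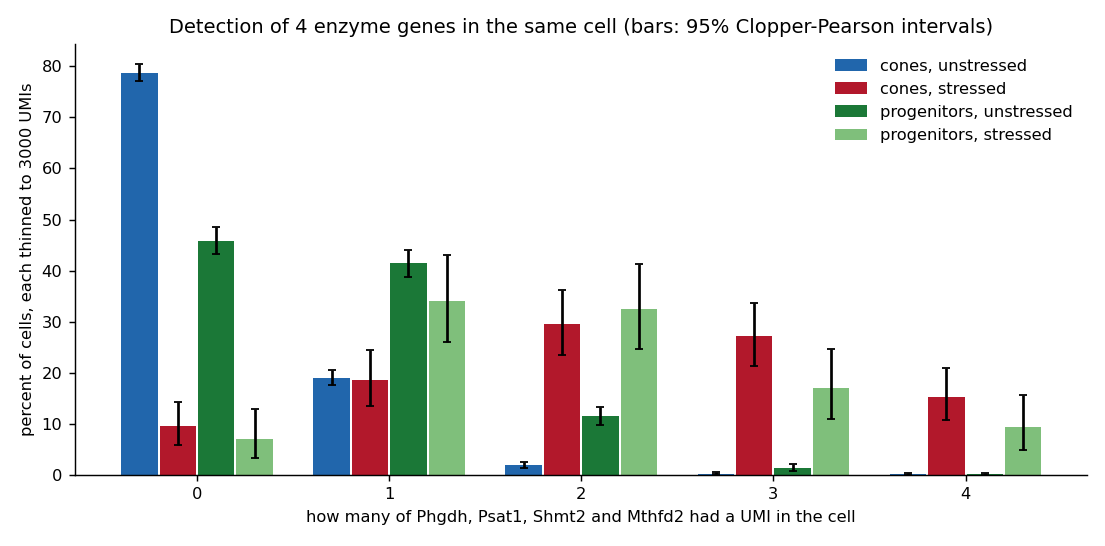
Bars give the percent of cells, each thinned to 3000 UMIs, in which 0 to 4 of *Phgdh*, *Psat1*, *Shmt2* and *Mthfd2* had a UMI, with 95% Clopper-Pearson intervals, for cones and progenitors with and without stress transcripts. Most unstressed cones (78.8%) had none of the 4, and most stressed cones had 2 or more.

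Cone markers stood at a similar level in both groups of cones. *Gngt2* was at 1989.9 CPM in stressed and 1960.4 CPM in unstressed cones, and the cone list as a whole at 4058 and 4646 CPM. Median depth was 4171.5 and 3831.5 UMIs, mitochondrial UMIs made up 1.97% and 2.55%, and 0 and 3 cells were called doublets. Progenitor markers summed to 52.9 and 52.0 CPM (2 and 0 of 6 at 0), ganglion markers to 85.9 and 38.0 CPM (1 and 0 of 8 at 0) and vascular markers to 0 and 6.05 CPM. The part of these differences in the result was not tested.

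Progenitors with stress transcripts, a comparison added after seeing the data, had higher levels of the same 4 genes. In the 129 progenitors that met the same limit, 5 of the 9 genes were at least 2-fold higher than in 1386 unstressed progenitors and 0 were 2-fold lower, against 3.68% and 8.07% of 12770 genes. *Mthfd2* had a ratio of 6.63 (5.70 to 7.69), from 35.3 CPM (32.1 to 38.7) to 234 CPM (208 to 262). The ratio was 3.70 (3.23 to 4.22) for *Phgdh*, 3.36 (2.95 to 3.82) for *Psat1*, 2.27 (1.81 to 2.83) for *Psph* and 2.19 (1.91 to 2.51) for *Shmt2*. *Mthfd1l* had 1.42 (0.876 to 2.21) and *Tyms* 0.969 (0.834 to 1.12). The calls of *Psph* and *Shmt2* were lost, leaving 3 genes, with a limit of 3 stress UMIs over 2 genes (ratios of 1.93 for both) and without *Asns*, *Slc7a3* and *Slc7a5* in the list (1.54 and 1.87).

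*Phgdh* was at 239 CPM (213 to 267) in stressed progenitors and 279 CPM (247 to 313) in stressed cones, a ratio of cones to progenitors whose interval held 1 (0.990 to 1.38). The other 3 genes were higher in stressed cones beyond counting error. The ratio was 1.28 (1.09 to 1.49) for *Psat1*, 1.36 (1.14 to 1.62) for *Shmt2* and 2.43 (2.11 to 2.81) for *Mthfd2*. All genes tested had a median log2 ratio of 0.43 in this comparison, so that *Psat1* and *Shmt2* lay near a typical gene. By the 2-fold limit 1 of the 9 genes was higher (*Mthfd2*) and 3 were lower, against 3298 and 1417 of 10630 genes. The limit of 5 UMIs is easier to meet in progenitors, which were more than 2 times as deep. Counted after each cell was thinned to 3000 UMIs, 151 of 3213 cones (4.70%, 3.99 to 5.49) but 8 of 1856 progenitors (0.431%, 0.186 to 0.848) met it, whereas at full depth the shares were 6.35% and 6.93%. Cells past the limit of this list were thus more frequent among GFP+ cones than GFP− progenitors at equal depth, where class and library cannot be told apart. The list was chosen with earlier results of these data known. It holds *Slc7a3* and *Slc7a5*, which the authors reported as increased in a cone subpopulation of these cells. The shares therefore do not show how frequent a stress response was in either class. The size of the rise in progenitors is not set against that in cones.

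Gene lists around the 9 genes showed which neighbours moved with them in stressed cones. Of 12 aminoacyl-tRNA synthetases, which charge tRNAs with amino acids, 11 were at least 2-fold higher (*Gars* 7.40, *Cars* 6.62, *Sars* 5.12), all but *Wars* at 1.33, and the list's median log2 ratio was 2.24. Of 8 genes listed under other amino acid synthesis 5 were higher. Among them were *Pck2*, which itself makes no amino acid, at 14.7, *Pycr1* of proline synthesis at 10.6 and *Gpt2* at 8.93. Of 9 tested genes that carry or use serine, 3 were higher. *Cth*, which makes cysteine with carbon from serine, went from 5.87 to 180 CPM, a ratio of 30.6, the neutral amino acid carrier *Slc1a4* had a ratio of 24.2 and *Slc1a5* 4.27.

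The pathways that use one-carbon units passed the limit at few genes. Of 13 other folate genes 1 was higher, *Aldh1l2*, a mitochondrial folate dehydrogenase, from 5 to 18 UMIs (a ratio of 41.0), and *Mtr*, with 0 UMIs in stressed cones, was the 1 lower. *Mthfd2l*, the close relative of *Mthfd2*, had a ratio of 0.874. Of 6 purine, 4 glycine cleavage, 4 methionine cycle and 5 tested thymidylate and nucleotide genes, 0 were 2-fold higher or lower. Of 7 genes listed as chaperones of the endoplasmic reticulum, 1 was higher (*Herpud1*, itself not a chaperone, 6.18) and 1 lower (*Sdf2l1*, 0.365), with *Hspa5* at 1.09. Of the immediate early genes 0 of 6 passed the limit, and of the tested heat shock genes 0 of 3.

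Across 8 groups of cells, the genes most like each member were sought by Pearson correlation of log2(CPM + 1) among 4671 genes with at least 50 CPM in a group, given as a description, since the groups share 2 libraries. *Tyms* was most like *Dnajc9*, *Rfc4* and *Nde1* (r of 0.999 to 0.997). *Mthfd1* was most like *Umps*, *Mcm7* and *Pmf1*, and *Shmt1* most like *Suclg2*, *Hnrnpf* and *Mcm5*. *Mthfd2* was most like *Eprs*, *Eif2s2* and *Chac1* (r of 0.986 to 0.978), the last of which helped set the groups, and *Psph* like *Pck2*, *Arl14ep* and *Slc7a1*. *Psat1* was most like *Aars*, *Eif1* and *Shmt2*, and *Shmt2* like *Nup62*, *Aars* and *Pole4*. *Phgdh* was most like *Vgll4*, *Igf2bp2* and *Nup85*, and *Mthfd1l* like *Nup62*, *Arf6* and *Arl6ip6*. Of the 9 members, *Shmt2* was the only one among the 3 genes most like another member. *Shmt1*, *Mthfd1* and *Mthfd1l* were below 50 CPM in all 8 groups and so could not be listed as like another gene.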

How the data were processed

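Single cells of 1 GFP+ and 1 GFP− sort of pooled *LHX4::GFP* retinas were read by 3′ droplet sequencing (10x Chromium). The authors deposited raw UMI counts for every gene in every called cell, made with Cell Ranger 2.1.1 on mm10. Only barcodes called as cells were used, so that free RNA could be gauged only from markers of other classes, whose UMIs the class rule itself limits.

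Cells were filtered by the limits given above, and doublets were called per library with Scrublet (scanpy 1.11.5, expected rate 0.03), and the 3 among the kept cells were left in. Counts were summed over the cells of a group and divided by the group's total. Medians of log2 ratios used a prior count of 0.5. A gene at 0 was bounded by 3 counts. Progenitors were called mitotic with at least 5 UMIs of the mitotic list and otherwise replicating with at least 5 of the replication list. No p-value was taken from cells. The intervals and the thinning were tested on simulated data. TMM factors came from edgeR 4.0.16 in R 4.3.3. The intervals came from scipy 1.17.1, and sums were made with pandas 2.3.3 and numpy 2.4.6 under Python 3.11.15.

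The 9 genes and all gene lists were chosen with earlier results of these data known. The genes named are the 9 members, those of the lists with the most UMIs or the largest ratio, the markers that set a group, and the 3 genes most like each member. Any other gene was named after its values were seen. No protein sequence was used here. Some results on other folate cycle genes are not reported here.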

Additional observations from a re-analysis of the deposited data

How the results depend on the processing

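Each comparison was repeated with folds of 1.5 and 3, TMM factors, mean UMIs per cell without scaling, means of per-cell values, cells thinned to 3000 UMIs, no upper limit on genes, called doublets left out (3 GFP+ cells and 0 GFP− cells, so that comparisons within the GFP− library could not change) and, for the classes, other shares, marker numbers and stress rules. The number of lower genes in GFP+ cells was 7 with mean UMIs per cell, which carry the difference in depth and shifted the median log2 ratio of all genes by −1.08, and TMM factors shifted it by −0.28 there and by −0.36 for cones against progenitors. *Mthfd2* reversed in cones against progenitors when stressed cones were included (1.21). In stressed cones 1 gene instead of 0 was lower (*Mthfd1* in thinned cells, otherwise *Shmt1*) at a fold of 1.5, in thinned cells, with at least 10 stress UMIs, without *Asns*, *Slc7a3* and *Slc7a5* in the list, and with stress UMIs counted in thinned cells. In stressed progenitors 3 genes instead of 5 were higher at a fold of 3, with 3 stress UMIs over 2 genes, and without *Asns*, *Slc7a3* and *Slc7a5*, and 1 was lower with stress UMIs counted in thinned cells (8 stressed cells). The cause was not tested. The counts of the other alternatives stayed within 1.5 times. Over all alternatives the ratio in stressed cones ranged from 14.7 to 26.2 for *Mthfd2* and from 10.4 to 18.0 for *Phgdh*. *Phgdh* in neurons ranged from 0.00359 (class share of 95%) to 0.285. Low counts limit *Shmt1*, *Mthfd1* and *Mthfd1l* in cones. No paired analysis was possible because each gate has a single library.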
